A study of Mus musculus with 19 samples.

Results

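The genes described here are 10 myeloid growth factor and receptor genes measured in mouse 4T1 tumours: 7 ligands (Csf1, Il34, Csf2, Csf3, Kitl, Flt3l and Mif) and 3 receptor subunits (Csf2ra, Csf2rb and Csf2rb2). They were taken by symbol, with no threshold on their values but with earlier results of these data known, from 46983 counted genes, and 10 of the 10 passed the filter on low counts that left 16763 genes for testing. 4T1 is a mouse mammary carcinoma line, and the tumours grew in syngeneic BALB/cAnN mice from implanted cells of a control line (4T1-Sc) or of a line with knockdown of LDHA (4T1-KD), the lactate dehydrogenase subunit that turns pyruvate into lactate. Mice carrying each kind of tumour received 3 treatments with control IgG or with antibody to CTLA-4, a brake on T cell activation, starting 3 days after implantation and spaced 3 days apart. The 4 groups comprised IgG-treated control tumours (n = 4, replicates 1, 3, 4 and 5), anti-CTLA-4-treated control tumours (n = 5), IgG-treated LDHA-KD tumours (n = 5) and anti-CTLA-4-treated LDHA-KD tumours (n = 5). The labels give 1 line of each kind, do not say how the knockdown was made or whether a line is a clone, and give neither the age nor the sex of the mice. They also do not say that each replicate was a separate animal, so p-values measure only the spread between these samples.

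Myeloid growth factors control how many macrophages, granulocytes, dendritic cells and mast cells are made and how long they live. CSF1 and IL-34 both act on the receptor tyrosine kinase CSF1R of monocytes and macrophages, GM-CSF (Csf2) acts through an alpha chain (Csf2ra) paired with the common beta chain (Csf2rb), and G-CSF (Csf3) acts on CSF3R of neutrophils and their precursors. Stem cell factor (Kitl) and the FLT3 ligand act on KIT and FLT3 of progenitors, mast cells and dendritic cells, and MIF, a cytokine released by many cell types, binds CD74. The 4T1 line is known for tumours that raise granulocyte numbers in the mouse, with tumour-derived G-CSF as one of the factors.

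Polyadenylated RNA gave between 31.8 and 43.3 gene counts per sample in units of 1000000. Levels are counts per 1000000 (CPM) of a library total scaled by trimmed means (TMM), and a count of 3 in a library corresponded to between 0.0697 and 0.0926 CPM. Ldha itself was between 1283 and 2244 CPM in the 9 control tumours and between 452 and 584 CPM in the 10 LDHA-KD tumours, with log2 fold changes of -1.72 ± 0.11 (SE, edgeR adjusted p = 2.46e-09) under IgG and -1.82 ± 0.11 (edgeR adjusted p = 6.23e-10) under anti-CTLA-4. Tumour epithelium markers (Epcam, keratins and Cdh1, 7 genes) were counted in every group, with summed levels of 4090.0 to 5204 CPM, 3997 to 4839 CPM, 3176 to 3439 CPM and 2176 to 3411 CPM in the order of groups above. On the second principal component of all genes tested (17.0% of the variance), replicates 3 and 5 of LDHA-KD tumours with anti-CTLA-4 had the lowest scores, followed by replicates 3 and 5 of control tumours with anti-CTLA-4. Where leaving out the first pair changed a call of LDHA-KD against control tumours for a member, or its size by over 1.5 times, both values are given.

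The 2 beta chain genes show how far counts can separate the members. They are neighbours on mouse chromosome 15 of build GRCm38 (GENCODE M21), Csf2rb2 on the minus strand at 78282507 to 78305721 and Csf2rb on the plus strand at 78325752 to 78353847. Their coding sequences matched at 95.2% of 2628 aligned bases, and the longest identical run was 242 bases. The first 120 bases of each coding sequence from GENCODE M21 are shown because the counting had to tell such stretches apart, with the 4 bases that differ in capitals.
Csf2rb: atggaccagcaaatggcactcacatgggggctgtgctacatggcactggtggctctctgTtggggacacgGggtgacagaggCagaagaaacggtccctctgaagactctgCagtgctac
Csf2rb2: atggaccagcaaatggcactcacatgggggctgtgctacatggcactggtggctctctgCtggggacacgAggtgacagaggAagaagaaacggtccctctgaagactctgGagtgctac
Of all windows of 50 bases in the transcripts, 12.3% of those of Csf2rb also occur in transcripts of Csf2rb2, and 18.4% of those of Csf2rb2 in Csf2rb. Sharing of windows with any other gene was 0 for Csf1, Csf3, Kitl and Csf2ra. It was 1.30% for Il34 and 6.39% for Csf2, each with 1 antisense gene, and 50.9% for Mif, whose matches lie in 7 other genes. The identifier that the deposited counts call Flt3l is named Gm45713 in GENCODE M21, a protein-coding model at chromosome 7, 45125922 to 45136231, that shares 621 exon bases with Rpl13a and 856 with the model M21 calls Flt3l. With 96.8% of its windows found in other genes, its values are those of the row labelled Flt3l and may not stand for the whole gene.

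Promoter sequences from RefSeq (GRCm38.p6) were found for 7 of the 10 genes; Csf3, Il34 and Csf2rb were not matched. The 250 bases before the start of Csf1, Csf2ra and Csf2rb2 are shown, since these 3 genes changed in both comparisons of LDHA-KD with control tumours, with motif matches in capitals. Windows of 300 bases, which add 50 bases after the start, were searched on both strands for the hypoxia response cores ACGTG and GCGTG, the AP-1 site TGAGTCA with its reverse complement TGACTCA, the CK-1 element by its name, the NF-kB site, likewise by name, and, added after seeing the data, the PU.1 core GAGGAA. The Csf1 window, chr3:107760470-107760719 on the minus strand, holds 1 match, to NF-kB, which starts 154 bases before the gene's start.
Csf1 promoter: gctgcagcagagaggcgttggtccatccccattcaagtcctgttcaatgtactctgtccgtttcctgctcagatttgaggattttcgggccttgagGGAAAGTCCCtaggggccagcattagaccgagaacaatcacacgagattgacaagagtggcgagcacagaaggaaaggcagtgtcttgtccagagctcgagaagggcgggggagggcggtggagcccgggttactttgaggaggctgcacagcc
The Csf2ra window, chr19:61228419-61228668 on the minus strand, holds ACGTG on the opposite strand at -225 and adjoining GAGGAA matches at -14 and -8. GENCODE M21 places the end of the gene at 61228429, so the last 11 bases of the window lie inside its gene model.
Csf2ra promoter: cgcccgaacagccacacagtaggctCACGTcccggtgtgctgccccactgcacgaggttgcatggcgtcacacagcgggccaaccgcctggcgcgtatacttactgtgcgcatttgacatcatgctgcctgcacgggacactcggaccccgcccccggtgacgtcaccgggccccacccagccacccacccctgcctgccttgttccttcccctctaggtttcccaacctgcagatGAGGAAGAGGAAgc
The Csf2rb2 window, chr15:78305722-78305971 on the minus strand, holds GAGGAA on the opposite strand at -167, and the bases past the start hold another at +30.
Csf2rb2 promoter: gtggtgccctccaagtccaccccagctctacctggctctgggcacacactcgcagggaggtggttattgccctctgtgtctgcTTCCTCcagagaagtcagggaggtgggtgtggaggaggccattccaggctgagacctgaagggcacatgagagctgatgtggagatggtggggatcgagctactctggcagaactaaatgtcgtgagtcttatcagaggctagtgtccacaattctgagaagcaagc
The Mif window holds 1 match, an ACGTG on the opposite strand at +30, and the 30 bases around it (chr10:75860228-75860257, minus strand) are shown because Mif is the member with the highest level per length. GENCODE M21 places the start of Mif at 75860240, so the match lies before the start of that gene model.
Mif site: gagctgggtCACGTagctcaggtccctggc
Such matches are common: of 32851 mouse promoters of the same length, 8.46% hold the NF-kB site, 28.3% GAGGAA, 19.6% ACGTG, 32.4% GCGTG, 5.20% the AP-1 site and 0.0396% the CK-1 element. The Kitl window holds NF-kB at -152 and GCGTG at -62, and that of Flt3l (chr7:45136433-45136682, minus strand) holds GCGTG at -65. The gene model of the row labelled Flt3l starts at 45136231 in GENCODE M21, so the bases next to that start were not searched. GENCODE M21 starts Kitl at 100015630, within its window (chr10:100015571-100015820, plus strand), so both Kitl matches lie inside its gene model. The Csf2 window (chr11:54249900-54250149, minus strand) held 0 matches to the motifs searched. GENCODE M21 places the start of Csf2 at 54249667, so the bases next to that start were not searched. These are matches of letters, and binding was not measured.

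Comparing LDHA-KD with control tumours asks what knockdown in the implanted line went along with in the whole tumour. Of the 10 genes, 5 were higher and 0 lower under IgG at an edgeR adjusted p under 0.05 over all genes tested (Csf1, Flt3l, Csf2ra, Csf2rb and Csf2rb2), against 34.3% of all genes called in either direction, 16.8% higher and 17.5% lower. Under anti-CTLA-4, 5 were higher (Csf1, Kitl, Csf2ra, Csf2rb and Csf2rb2) and 2 lower (Il34 and Csf2), against 40.0% of all genes called, 20.2% higher and 19.8% lower. The 2 comparisons have no samples in common, but they compare the same 2 lines. Both came from 1 fit of all 19 samples that shares its estimate of the spread. The members' median log2 fold change was 0.64 under IgG and 0.58 under anti-CTLA-4, beside -0.0016 and 0.0059 for all genes tested. Under IgG the groups did not overlap for 6 members, each higher in LDHA-KD tumours, and 30.4% of all genes did not overlap, with 15.1% higher in LDHA-KD tumours. Under anti-CTLA-4 they did not overlap for 2 higher members (Csf1 and Csf2rb2) and 1 lower one (Csf2), beside 23.2% of all genes. Without TMM scaling, the all-gene median moved to 0.071 and 0.10, and the calls over all genes split into 3451 higher and 2251 lower under IgG (2814 and 2938 with scaling) and into 4445 higher and 2369 lower under anti-CTLA-4 (3390 and 3321 with scaling).

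**Figure D1:**
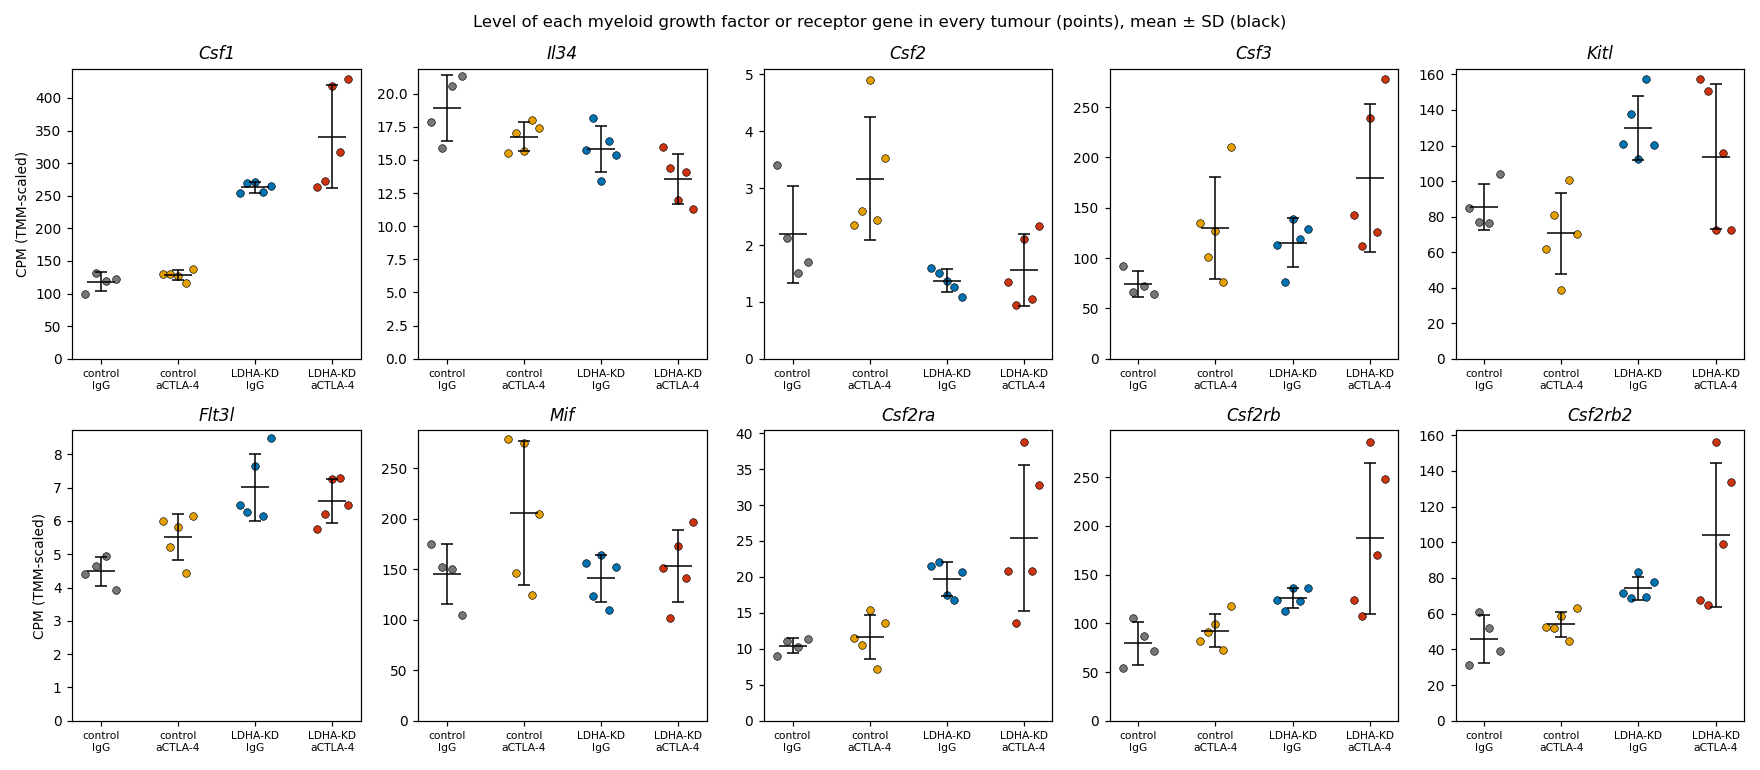
Level of each of the 10 genes in CPM (linear axes starting at 0) in every tumour, 1 point per sample, with the mean and SD of each of the 4 groups in black. Csf1 lies between 99.3 and 138 CPM in the control tumours and between 254 and 429 CPM in the LDHA-KD tumours, while Mif overlaps across all 4 groups.

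Csf1 (chromosome 3, 107741048 to 107760469, minus strand), the main growth factor of macrophages, differed most clearly. Replicates had 99.3, 132, 119 and 123 CPM in IgG-treated control tumours and 129.9, 130.3, 128, 117 and 138 CPM after anti-CTLA-4. LDHA-KD tumours had 254, 270.3, 271, 256 and 264 CPM (IgG) and 264, 272, 419, 317 and 429 CPM (anti-CTLA-4). Every LDHA-KD tumour was above every control tumour, and replicates 3 and 5 with anti-CTLA-4 stood highest. The log2 fold change was 1.15 ± 0.13 (SE, 95% interval 0.88 to 1.42, edgeR adjusted p = 1.67e-06) under IgG and 1.40 ± 0.12 (1.15 to 1.65, edgeR adjusted p = 5.61e-08) under anti-CTLA-4. With replicates 3 and 5 of LDHA-KD anti-CTLA-4 left out, the second value was 1.15. The call held in each of the 19 fits that left out 1 library, in both comparisons. In the order of group means, control IgG (118 ± 13.9 CPM, SD, n = 4) and control anti-CTLA-4 (129 ± 7.73 CPM, n = 5) overlapped, as did LDHA-KD IgG (263 ± 8.05 CPM, n = 5) and LDHA-KD anti-CTLA-4 (340.2 ± 79.0 CPM, n = 5).

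Il34 (chromosome 8, 110741829 to 110805924, minus strand), the other ligand of CSF1R, was low and lay on the opposite side. Control tumours had 17.9, 15.9, 20.5 and 21.3 CPM (IgG) and 15.5, 17.0, 15.6, 18 and 17.4 CPM (anti-CTLA-4). LDHA-KD tumours had 15.7, 18.2, 13.4, 16.4 and 15.4 CPM (IgG) and 16, 14.4, 12.0, 14.1 and 11.3 CPM (anti-CTLA-4). Both pairs of groups overlapped, and replicates 3 and 5 of LDHA-KD anti-CTLA-4, the highest for Csf1, were the lowest here. The log2 fold change was -0.26 ± 0.11 under IgG (edgeR adjusted p = 0.0824), which missed the threshold but passed without control IgG replicate 3 (-0.32, 0.0405) or LDHA-KD IgG replicate 2 (-0.31, 0.0492), and -0.30 ± 0.11 under anti-CTLA-4 (edgeR adjusted p = 0.0283), which passed. That call was lost without either of those replicates (edgeR adjusted p = 0.0737 and 0.0818) and on dropping replicate 4 or 5 of control anti-CTLA-4 (0.0674 and 0.0588). With both of these LDHA-KD replicates left out it was -0.17 (edgeR adjusted p = 0.24), without scaling -0.21 (0.121), with no filter on low counts -0.29 (0.0621), and without replicates 3 and 5 of both anti-CTLA-4 groups -0.18 (0.307).

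Csf2 (chromosome 11, 54247271 to 54249667, minus strand), which encodes GM-CSF, had the lowest levels of the 10, with 35 to 189 counts per library. It was 3.41, 2.12, 1.52 and 1.71 CPM in IgG-treated control tumours and 2.35, 2.60, 4.90, 2.44 and 3.53 CPM (anti-CTLA-4). In LDHA-KD tumours it was 1.60, 1.51, 1.38, 1.27 and 1.09 CPM (IgG) and 1.35, 0.945, 2.11, 1.05 and 2.34 CPM (anti-CTLA-4). Under anti-CTLA-4 the highest LDHA-KD tumour lay just under the lowest control tumour, while under IgG the groups overlapped. The fall under anti-CTLA-4 had a log2 fold change of -1.02 ± 0.28 (95% interval -1.60 to -0.44, edgeR adjusted p = 0.00646) and passed in each fit that left out 1 library. Without replicates 3 and 5 of LDHA-KD anti-CTLA-4 it was -1.50. Under IgG the value was -0.68 ± 0.30 (edgeR adjusted p = 0.0852), and -0.38 (0.38) on dropping replicate 1 of control IgG, the highest of its group. It passed in the fit of the IgG groups alone (edgeR adjusted p = 0.0453), without the pair of LDHA-KD anti-CTLA-4 tumours (0.0469), and with replicates 3 and 5 of both anti-CTLA-4 groups left out (0.0232).

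Csf3 (chromosome 11, 98701263 to 98703629, plus strand), which encodes G-CSF, spread widely within groups. Control tumours had 92.7, 66.7, 72 and 64.1 CPM (IgG) and 135, 101, 127, 76.1 and 210.2 CPM (anti-CTLA-4). LDHA-KD tumours had 113, 76.0, 139, 119 and 129 CPM (IgG) and 143, 112, 239, 126 and 277 CPM (anti-CTLA-4). Replicate 2 of LDHA-KD IgG fell among the controls, and replicates 3 and 5 of LDHA-KD anti-CTLA-4 were the highest of the 19. LDHA-KD minus control was 0.64 ± 0.28 (edgeR adjusted p = 0.0826) under IgG and 0.47 ± 0.26 (edgeR adjusted p = 0.16) under anti-CTLA-4, so neither passed with all samples. The second value turned to -0.03 without replicates 3 and 5 of LDHA-KD anti-CTLA-4, and rose to 0.72 (edgeR adjusted p = 0.0318) once control anti-CTLA-4 replicate 5 was dropped. Without replicate 2 of LDHA-KD IgG the IgG value was 0.76 (edgeR adjusted p = 0.0493). At 0.64 or 0.65 it also passed in the fit of the IgG groups alone (edgeR adjusted p = 0.00991), without the pair of LDHA-KD anti-CTLA-4 tumours (0.033), and with replicates 3 and 5 of both anti-CTLA-4 groups left out (0.0105).

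Kitl (chromosome 10, 100015630 to 100100416, plus strand), which encodes stem cell factor, was 84.9, 76.7, 76.7 and 104 CPM in IgG-treated control tumours and 62.0, 81.0, 38.6, 101 and 70.1 CPM (anti-CTLA-4). LDHA-KD tumours had 121, 138, 113, 157 and 120.4 CPM (IgG) and 157, 150.5, 72.2, 116 and 72.5 CPM (anti-CTLA-4). The IgG groups did not overlap, yet the log2 fold change of 0.60 ± 0.25 missed the threshold (edgeR adjusted p = 0.0647), and it passed in the fit of those 2 groups alone (0.00235) and without replicates 3 and 5 of LDHA-KD anti-CTLA-4 (0.0224). It also passed with DESeq2 (adjusted p = 0.0461), without scaling (edgeR adjusted p = 0.035), and in 4 of 19 fits without 1 library. Under anti-CTLA-4 the groups overlapped, with replicates 3 and 5 of LDHA-KD as low as the control tumours, and the value of 0.69 ± 0.23 passed (edgeR adjusted p = 0.0227). This call was lost without control anti-CTLA-4 replicate 1 or 3 (edgeR adjusted p = 0.0518 and 0.0565), on dropping replicate 1 or 2 of LDHA-KD anti-CTLA-4 (0.0656 and 0.0641) and in the fit of the 2 groups alone (0.0703). Without replicates 3 and 5 of LDHA-KD anti-CTLA-4 it was 1.002 (edgeR adjusted p = 0.0014).

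The row labelled Flt3l, for the growth factor of dendritic cell precursors, was 4.42, 4.64, 4.95 and 3.93 CPM in IgG-treated control tumours and 6.00, 5.22, 5.81, 4.45 and 6.15 CPM (anti-CTLA-4). It was 6.47, 6.28, 7.64, 6.14 and 8.49 CPM in IgG-treated LDHA-KD tumours and 5.77, 6.21, 7.27, 7.28 and 6.47 CPM (anti-CTLA-4). The IgG groups did not overlap and the anti-CTLA-4 groups did. LDHA-KD minus control was 0.64 ± 0.13 (edgeR adjusted p = 0.000721) under IgG, a call kept in each fit without 1 library, and 0.26 ± 0.12 (edgeR adjusted p = 0.093) under anti-CTLA-4, which passed without TMM scaling (0.36, edgeR adjusted p = 0.0312). The test of the difference between these 2 values gave -0.39 ± 0.17 with an edgeR adjusted p of 1 over all genes (unadjusted p = 0.0391). The overlap with Rpl13a described above applies to each of these values.

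Mif (chromosome 10, 75859353 to 75860240, minus strand) had 175, 153, 150.2 and 104 CPM in IgG-treated control tumours and 278, 146, 275, 124 and 205 CPM (anti-CTLA-4). LDHA-KD tumours had 156, 123, 164, 109 and 152 CPM (IgG) and 152, 102, 172, 141 and 197 CPM (anti-CTLA-4). All 4 groups overlapped, and replicates 1 and 3 of control anti-CTLA-4 were the highest. LDHA-KD minus control was -0.05 ± 0.23 (edgeR adjusted p = 0.895) under IgG, with a 95% interval of -0.52 to 0.42, and -0.43 ± 0.21 (edgeR adjusted p = 0.117) under anti-CTLA-4. The latter passed only in the fit without control anti-CTLA-4 replicate 4, among fits that left out 1 library (-0.56, edgeR adjusted p = 0.0382). With replicates 3 and 5 of LDHA-KD anti-CTLA-4 dropped it was -0.64 (edgeR adjusted p = 0.0512).

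**Figure D2:**
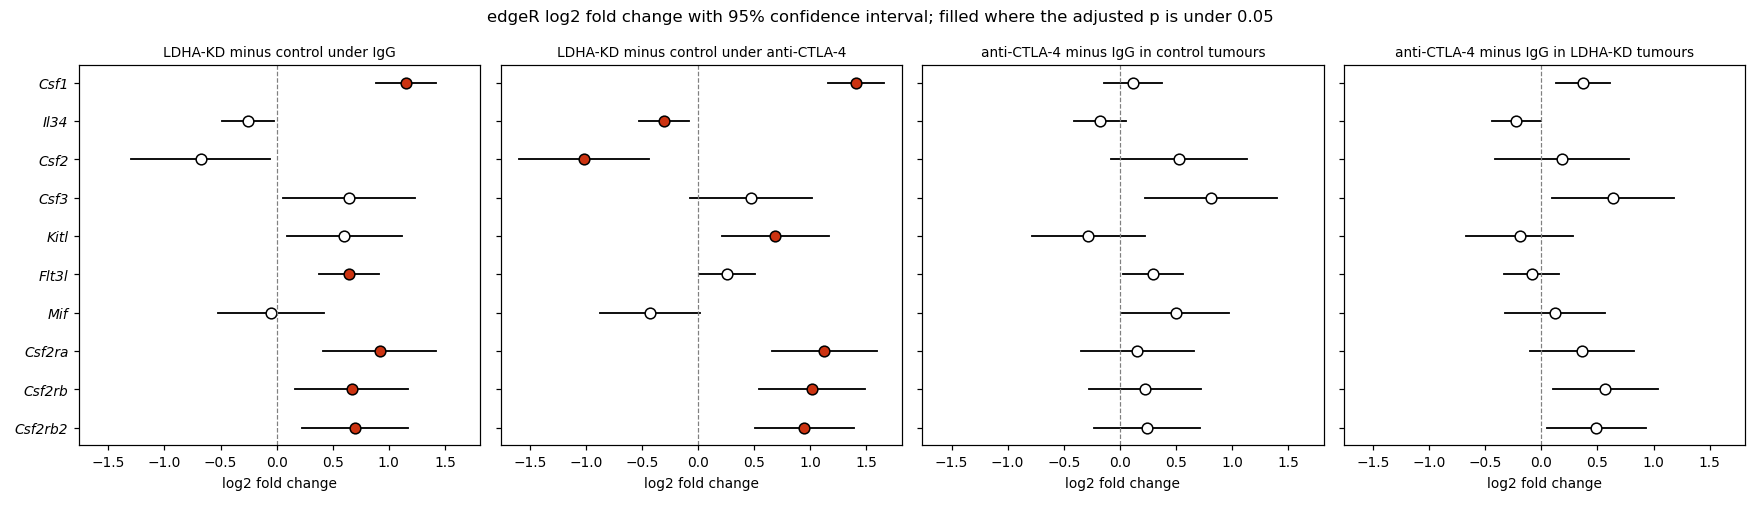
edgeR log2 fold change of each of the 10 genes (points) with its 95% confidence interval (lines) in 4 comparisons; filled points have an adjusted p under 0.05. The 2 panels of LDHA-KD minus control hold filled points for Csf1 and the 3 receptor subunits, and the 2 panels of anti-CTLA-4 minus IgG hold none.

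Csf2ra (chromosome 19, 61223957 to 61228429, minus strand), the alpha chain that binds GM-CSF, was higher in LDHA-KD tumours. Control tumours had 9.02, 11.1, 10.3 and 11.3 CPM (IgG) and 11.5, 10.5, 15.4, 7.24 and 13.6 CPM (anti-CTLA-4). LDHA-KD tumours had 21.5, 22.1, 17.5, 16.8 and 20.7 CPM (IgG) and 20.8, 13.6, 38.8, 20.9 and 32.8 CPM (anti-CTLA-4). Under anti-CTLA-4 only replicate 2 of LDHA-KD reached into the control range. The log2 fold change was 0.92 ± 0.24 (edgeR adjusted p = 0.00607) under IgG and 1.12 ± 0.22 (edgeR adjusted p = 0.000618) under anti-CTLA-4, and both calls held in each fit without 1 library. Without replicates 3 and 5 of LDHA-KD anti-CTLA-4 the second value was 0.66 (edgeR adjusted p = 0.0118). Its ligand gene Csf2 was thus lower under anti-CTLA-4 while its alpha chain was higher.

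Csf2rb, the signalling chain shared by the receptors of GM-CSF, IL-3 and IL-5, was 53.9, 106, 86.5 and 71.8 CPM in IgG-treated control tumours and 81.6, 91.3, 99.6, 72.7 and 117 CPM (anti-CTLA-4). LDHA-KD tumours had 124, 112, 136, 123 and 136 CPM (IgG) and 124, 107, 286, 171 and 248 CPM (anti-CTLA-4). The IgG groups did not overlap, and under anti-CTLA-4 replicates 3 and 5 of LDHA-KD stood far above the rest. The log2 fold change was 0.67 ± 0.24 (edgeR adjusted p = 0.0376) under IgG. That call was lost in 7 of 19 fits without 1 library: without control IgG replicate 1, 4 or 5 (edgeR adjusted p = 0.129, 0.0517 and 0.0874) and without LDHA-KD IgG replicate 1, 3, 4 or 5 (0.0567, 0.0666, 0.0525 and 0.0694). Under anti-CTLA-4 it was 1.02 ± 0.23 (edgeR adjusted p = 0.0015), kept in all 19, and 0.54 (edgeR adjusted p = 0.0339) without replicates 3 and 5 of LDHA-KD anti-CTLA-4.

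Csf2rb2, a second beta chain gene of the mouse that serves the IL-3 receptor, followed Csf2rb. It was 31.3, 61.2, 51.9 and 38.8 CPM in IgG-treated control tumours and 52.5, 51.8, 59.0, 44.7 and 62.9 CPM (anti-CTLA-4). LDHA-KD tumours had 71.7, 68.6, 83.6, 69.2 and 77.8 CPM (IgG) and 67.7, 64.9, 156, 98.8 and 134 CPM (anti-CTLA-4), so neither pair of groups overlapped. The log2 fold change was 0.70 ± 0.23 (edgeR adjusted p = 0.0221) under IgG and 0.94 ± 0.21 (edgeR adjusted p = 0.00158) under anti-CTLA-4. The IgG call was lost without control IgG replicate 1 or 5 (edgeR adjusted p = 0.0853 and 0.065), and the second value was 0.51 (edgeR adjusted p = 0.0343) without replicates 3 and 5 of LDHA-KD anti-CTLA-4. The ratio of Csf2rb to Csf2rb2 counts stayed between 1.55 and 1.87 over the 19 libraries. With their counts summed as 1 gene, the change was 0.68 ± 0.23 (edgeR adjusted p = 0.0308) under IgG and 0.99 ± 0.22 (edgeR adjusted p = 0.0015) under anti-CTLA-4.

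Levels of different genes were compared as CPM per kilobase of exon, leaving out the row labelled Flt3l because its length is unsure. Mif ranked highest in each group (195 ± 39.6, 276 ± 95.5, 189 ± 31.4 and 205 ± 47.8 CPM per kilobase, SD, n = 4, 5, 5 and 5), Csf3 next (52.3 ± 9.16, 91.9 ± 35.8, 81.7 ± 17.1 and 127 ± 52.3) and then Csf1 (22.4 ± 2.64, 24.3 ± 1.46, 49.8 ± 1.52 and 64.4 ± 15.0). In LDHA-KD tumours with anti-CTLA-4, the lowest Mif value (137) lay within the range of Csf3 (79.5 to 196), and the highest Csf1 value (81.2) also reached into it. Csf2 had the lowest level per kilobase in each group, from 1.71 ± 0.25 in LDHA-KD tumours with IgG to 3.96 ± 1.35 in control tumours with anti-CTLA-4, where it overlapped with Csf2ra (4.05 ± 1.08). Mif shares 50.9% of its windows with other genes, so its rank carries that limit.

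The receptors of the member ligands were examined next. Csf1r, the receptor of CSF1 and IL-34, was 95.3, 181, 191 and 179 CPM in IgG-treated control tumours and 135, 182, 172, 115 and 132 CPM (anti-CTLA-4). LDHA-KD tumours had 319, 339.8, 310.0, 317 and 336 CPM (IgG) and 277, 277, 335, 309.8 and 322 CPM (anti-CTLA-4). Every LDHA-KD tumour was above every control tumour, with log2 fold changes of 1.004 ± 0.16 (edgeR adjusted p = 0.000101) and 1.05 ± 0.15 (edgeR adjusted p = 2.86e-05). Kit, the receptor of stem cell factor, ranged from 8.15 to 14.8 CPM in control and from 13.9 to 23.6 CPM in LDHA-KD tumours, with changes of 0.82 ± 0.16 and 0.79 ± 0.15 (edgeR adjusted p = 0.000434 and 0.000292). Flt3, the receptor of FLT3 ligand, ranged from 0.953 to 3.40 CPM and from 4.32 to 6.45 CPM, with changes of 1.41 ± 0.25 and 1.22 ± 0.23 (edgeR adjusted p = 0.000279 and 0.000411). Cd74, the MIF receptor and invariant chain of MHC class II, ranged from 176 to 368 CPM and from 372 to 1088 CPM, with changes of 1.51 ± 0.27 and 1.53 ± 0.25 (edgeR adjusted p = 0.000256 and 9.96e-05). Csf3r, the G-CSF receptor, did not pass, at 0.31 ± 0.34 and 0.67 ± 0.32 (edgeR adjusted p = 0.526 and 0.102); its highest values were 162 and 121 CPM in replicates 3 and 5 of LDHA-KD anti-CTLA-4, against 22.7 to 76.2 CPM in the other 17 samples. Without that pair its change under anti-CTLA-4 was -0.11 (edgeR adjusted p = 0.773), while the changes of Csf1r, Kit, Flt3 and Cd74 were 0.97, 0.79, 1.12 and 1.25 and still passed.

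**Figure D3:**
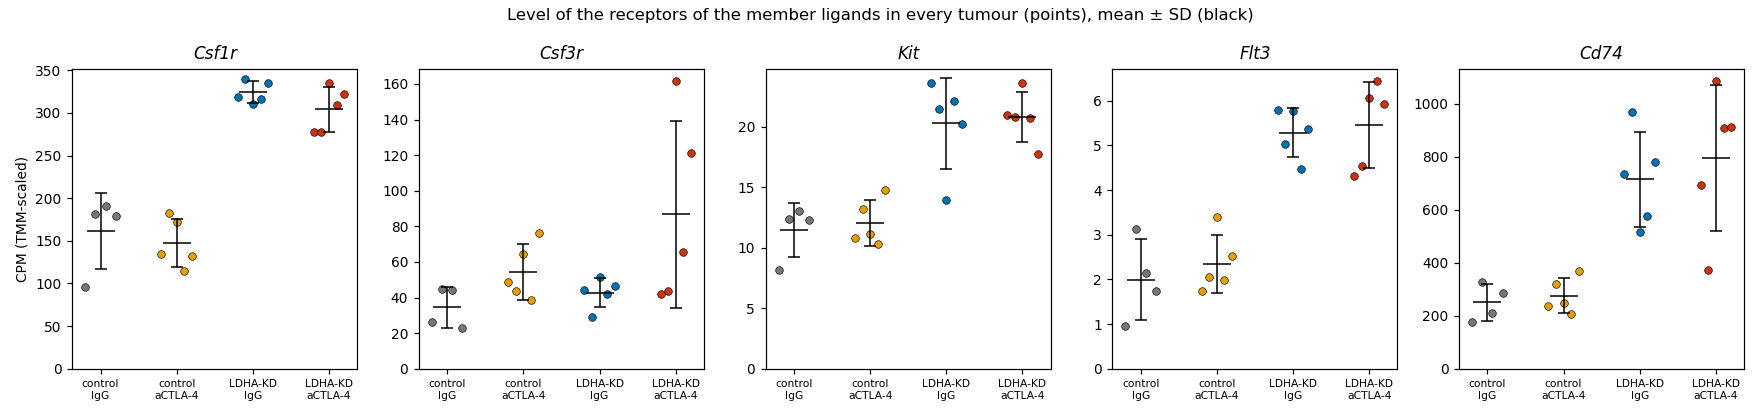
Level of the receptor genes Csf1r, Csf3r, Kit, Flt3 and Cd74 in CPM (linear axes starting at 0) in every tumour, 1 point per sample, with the mean and SD of each group in black. Csf1r lies between 95.3 and 191 CPM in control tumours and between 277 and 339.8 CPM in LDHA-KD tumours, whereas Csf3r overlaps across the 4 groups.

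Other genes of these pathways were read from a list of 46 symbols, of which 45 were tested (Ptprz1 did not pass the filter). Under IgG 18 rose and 3 fell with the knockdown, with a median log2 fold change of 0.25, and under anti-CTLA-4 23 were higher and 4 lower, with a median of 0.36. Over all genes 16.8% were higher and 17.5% lower under IgG, and 20.2% and 19.8% under anti-CTLA-4. Without replicates 3 and 5 of LDHA-KD anti-CTLA-4, 15 were higher and 5 lower in the latter comparison, with a median of 0.12, beside 16.3% and 16.1% of all genes. The 3 lower in both were Cd44, the signalling partner of CD74 (log2 fold changes of -0.71 and -0.64), the atypical chemokine receptor Ackr3 (-1.27 and -1.23) and the syndecan Sdc1 (-1.38 and -1.42). Among 12 receptors tested, Cxcr2, Cxcr4, Il3ra and Csf3r passed in neither comparison. Il5ra, the IL-5 receptor alpha chain of eosinophils, passed under anti-CTLA-4 (edgeR adjusted p = 0.00117) from 0 to 3 counts in control and 5 to 29 counts in LDHA-KD libraries, and no fold is given because of the control values near 0. The ligands Il3 and Il5 were under 1 CPM in every sample and did not pass with all samples. Ddt, a paralog of Mif, passed under anti-CTLA-4 (-0.34 ± 0.12, edgeR adjusted p = 0.0391) and not under IgG (0.06 ± 0.13, edgeR adjusted p = 0.76). Without replicates 3 and 5 of LDHA-KD anti-CTLA-4, 2 of these 3 ligands were lower under anti-CTLA-4, so Il3 or Il5 was among them.

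Myeloid transcription factors were higher in 6 of 9 cases under IgG and in 8 of 9 under anti-CTLA-4, beside 16.8% and 20.2% of all genes. Without replicates 3 and 5 of LDHA-KD anti-CTLA-4 the second count was 3 of 9. The calls of the genes named below are those with all samples, and not all of them remain without that pair. With all samples, genes higher in both comparisons included Spi1, which encodes PU.1 (0.92 ± 0.18 and 0.98 ± 0.17, edgeR adjusted p = 0.000672 and 0.000167). Irf8 of monocytes and dendritic cells (0.64 ± 0.12 and 0.53 ± 0.11, edgeR adjusted p = 0.000313 and 0.000736) and Gfi1 of granulocytes (1.63 ± 0.34 and 1.04 ± 0.29, edgeR adjusted p = 0.000935 and 0.00751) were also among them. Cebpa, Cebpe and Gata2 also passed in both comparisons, Mitf passed under anti-CTLA-4, and Cebpb passed in neither. Of 14 signalling genes, 7 and 9 were higher, and 7 under anti-CTLA-4 without that pair. The lipid phosphatase Inpp5d (0.80 ± 0.14 and 0.91 ± 0.13) and the phosphatase Ptpn6 (0.50 ± 0.08 and 0.56 ± 0.08) passed in both, as did Fes, Lyn, Shc1 and Tyk2, while the ubiquitin ligase Cbl and the adaptor Gab2 passed under anti-CTLA-4. Jak2, Stat3, Stat5a, Stat5b and Grb2 passed in neither. Of 7 feedback genes and targets of these receptors, Bcl2l1 passed in both (0.25 ± 0.08 and 0.24 ± 0.08, edgeR adjusted p = 0.0288 and 0.0197), while Socs1, Socs2, Socs3, Cish, Pim1 and Mcl1 did not. Without replicates 3 and 5 of LDHA-KD anti-CTLA-4, 0 of these 7 passed under anti-CTLA-4.

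Macrophage, mast cell and dendritic cell markers were higher with the knockdown, and neutrophil markers overlapped between the lines. In whole tumours more cells of a type and more RNA per cell cannot be told apart. Macrophage markers (8 genes, Csf1r among them) summed to 1179 to 2125 CPM in control tumours with IgG, 1425 to 1865 CPM (anti-CTLA-4), 2760.2 to 3305 CPM in IgG-treated LDHA-KD tumours and 3033 to 3397 CPM (anti-CTLA-4), and 6 and 8 of the 8 were higher in LDHA-KD tumours. Mast cell markers (8 genes, Kit among them) ran from 111 to 192 CPM in control and from 413 to 759 CPM in LDHA-KD tumours, with 7 and 8 of 8 higher. Dendritic cell markers (8 genes, Flt3 among them) ran from 22.1 to 42.0 CPM and from 47.7 to 73.8 CPM, with 6 of 8 higher and 1 lower in both comparisons. Neutrophil markers (10 genes, Csf3r and Cxcr2 among them) overlapped, at 287 to 464, 459 to 1273, 260.0 to 707 and 467 to 1433 CPM in the 4 groups, with 1 and 0 of 10 higher. Their highest sums were 1433 and 1256 CPM in replicates 3 and 5 of LDHA-KD anti-CTLA-4 and 1273 CPM in replicate 5 of control anti-CTLA-4. Other lists moved too: 7 of 7 T cell markers were higher in both comparisons (medians of 1.99 and 1.45). Of 5 NK cell markers 4 were higher and 1 lower in both, and 1 and 4 of 5 eosinophil markers were higher. Of 6 endothelial markers 6 and 3 were lower, and of 7 tumour epithelium markers 3 and 5 were lower. Of 7 fibroblast markers 4 were lower and 1 higher under IgG, and 3 were higher under anti-CTLA-4. Without replicates 3 and 5 of LDHA-KD anti-CTLA-4, 2 fibroblast markers were higher and 2 lower in the latter comparison. In that fit 4 endothelial and 3 tumour epithelium markers were lower. Not one marker of the macrophage, mast cell, dendritic cell or neutrophil lists was at 0 over a whole group. The part of any of these cells in the members' changes was not tested.

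Comparing anti-CTLA-4 with IgG asks how each kind of tumour responded to the antibody. In neither line did a member pass, and 0% of all genes were called in either line by edgeR or for the difference between the lines (0 with limma voom also, while DESeq2 called 12 genes in control and 47 in LDHA-KD tumours). At an unadjusted edgeR p under 0.05 there were 3 of 10 members and 1346 of 16763 genes in control tumours. In LDHA-KD tumours there were 5 members and 1987 genes, and for the difference 1 member and 415 genes. The 5 members include both beta chain genes, whose transcripts share sequence. Csf3 had the largest value of the members in both lines, 0.81 ± 0.28 (unadjusted p = 0.0093, edgeR adjusted p = 0.601) in control and 0.64 ± 0.26 (unadjusted p = 0.0244, edgeR adjusted p = 0.361) in LDHA-KD tumours. Without replicates 3 and 5 of LDHA-KD anti-CTLA-4 the second value was 0.14. Csf1 in LDHA-KD tumours had 0.37 ± 0.12 (unadjusted p = 0.00504, edgeR adjusted p = 0.312), and 0.11 without those replicates. The 95% interval of the Csf1 difference in control tumours was -0.14 to 0.38. Csf2rb and Csf2rb2 in LDHA-KD tumours were 0.57 ± 0.22 and 0.49 ± 0.21 (edgeR adjusted p = 0.345 and 0.371), and 0.09 and 0.06 without the same pair. Neutrophil markers had medians of 0.98 and 0.85 in these comparisons, the second 0.30 without the same pair, with 0 of 10 past the threshold in either.

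Replicates 3 and 5 of LDHA-KD anti-CTLA-4 thus differed from the other 3 samples of their group in several members at once. Csf1 was 419 and 429 CPM against 264 to 317 CPM, Csf2ra 38.8 and 32.8 against 13.6 to 20.9 CPM, and Csf3 239 and 277 against 112 to 143 CPM. Kitl went the other way, at 72.2 and 72.5 against 116 to 157 CPM. They also had the lowest tumour epithelium sums of the 19 (2176 and 2334 CPM), fibroblast sums of 4108 and 2830 CPM against 1588 to 2507 CPM in the rest of the group, 13.8% and 12.1% of reads in no gene (8.42% to 11.6% elsewhere) and 10.2% and 10.6% aligned at several places (11.6% to 14.1% elsewhere). The part of these in the members' values was not tested. Across the 19 samples, with group means taken off, Kitl had Pearson correlations of -0.81 with Mif, -0.80 with Csf2ra and -0.67 with Csf1, whereas Csf1 had 0.92 with Csf2rb and 0.78 with Csf2ra. Without that pair (n = 17) these were -0.80, -0.64, -0.30, 0.85 and 0.51 in the same order. These are descriptions over samples that share library totals, and a few samples can set them.

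Ligand and receptor levels were compared across samples within each line, in 14 relations of log2 CPM (7 pairs in 2 lines, permutation tests, p adjusted over the 14). In the 10 LDHA-KD tumours Csf3 and Csf3r had a Pearson r of 0.92 (permutation adjusted p = 0.0152) and a Spearman rho of 0.66 (permutation adjusted p = 0.153). Csf2 and Csf2ra had an r of 0.86 (permutation adjusted p = 0.0152) and a rho of 0.79 (permutation adjusted p = 0.12). Without the 2 samples farthest from the median of the ligand, which were replicates 3 and 5 of LDHA-KD anti-CTLA-4 for both, r was 0.73 (exact permutation p = 0.0786) and 0.57 (exact permutation p = 0.138), so that with 8 samples neither passed. Dropping the samples farthest out in the ligand also narrows its range and lowers n. Whether the relations rest on those samples therefore cannot be told from these values. In the 9 control tumours Csf3 and Csf3r had an r of 0.73 (exact permutation p = 0.0262, adjusted 0.122) and Csf1 and Csf1r an r of 0.59 (exact permutation p = 0.0862, adjusted 0.201). Without the 2 samples farthest from the ligand's median these were 0.54 and -0.66, the latter on leaving out control IgG replicate 1 and control anti-CTLA-4 replicate 4. Flt3l and Flt3 in LDHA-KD tumours had an r of 0.62 (permutation adjusted p = 0.199), and 0.88 (exact permutation p = 0.00067, not adjusted) without LDHA-KD IgG replicates 3 and 5. The other relations did not pass either, among them Kitl with Kit (r = -0.05 in control and 0.15 in LDHA-KD tumours). Within treatments, r of Csf3 with Csf3r was 0.99 (n = 5) under IgG and 0.88 (n = 5) under anti-CTLA-4 in LDHA-KD tumours, and -0.21 (n = 4) and 0.91 (n = 5) in control tumours. For Csf2 with Csf2ra it was 0.34 (n = 5) under IgG and 0.93 (n = 5) under anti-CTLA-4 in LDHA-KD tumours. In control tumours that pair had -0.76 (n = 4) and 0.78 (n = 5).

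**Figure D4:**
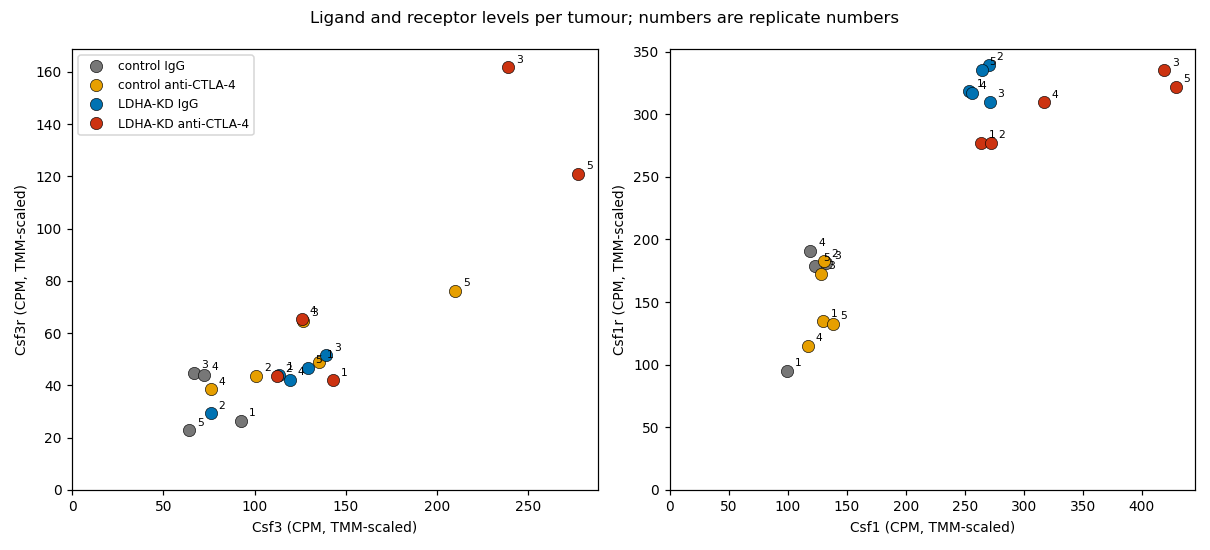
Csf3r against Csf3 (left) and Csf1r against Csf1 (right) in CPM on linear axes, 1 point per tumour, coloured by group and numbered by replicate. On the left, replicates 3 and 5 of LDHA-KD anti-CTLA-4 stand apart at 239 and 277 CPM of Csf3; on the right, LDHA-KD and control tumours form separate clouds, with Csf1r at 277 CPM or more in the former and 191 CPM or less in the latter.

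The ratio of Csf1 to Csf1r CPM lay between 0.623 and 1.33 over the 19 samples, with its 2 highest values, 1.25 and 1.33, again in replicates 3 and 5 of LDHA-KD anti-CTLA-4. For each member the 3 genes most alike over the 19 samples were named by Pearson correlation of log2 CPM, which mixes the difference between lines with that within them. Csf1 was closest to Sfrp1, Psd4 and Ern1 (r = 0.98 for each). Csf2ra was closest to Fes, Ap1g2 and Sirpa (0.97, 0.96 and 0.95), and Csf2rb to Csf2rb2, Syk and Fgr (0.99, 0.98 and 0.97), of which Fes, Syk and Fgr are kinases of blood cells. Csf2rb2 was closest to Csf2rb, Emilin2 and Syk (0.99, 0.98 and 0.98). Csf3 was closest to Slc31a2, Arg2 and Gm15056 (0.94, 0.91 and 0.91), Csf2 to Il1a, Ttc39c and Gm10561 (0.91, 0.89 and 0.88), and Il34 to Megf6, Rdh10 and Tsc22d1 (0.92, 0.92 and 0.91). Kitl was closest to Sgcb, RP23-380L19.3 and Rsu1 (0.97, 0.96 and 0.95), Mif to Manbal, Grhpr and Sys1 (0.94, 0.94 and 0.93), and the row labelled Flt3l to Alox5ap, Mkln1os and Bhlha15 (0.92 for each).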

How the data were processed

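Polyadenylated RNA of 19 implanted tumours was sequenced as read pairs from a stranded library kit, per the labels' protocols. The authors deposited raw read counts per gene, without normalization, 1 column per sample; HTSeq 0.5.3, Picard 1.124 and build mm10 are named in the submitters' processing notes, while the aligner, gene annotation and strand mode used for counting are not given in the sources used here. Reads of overlapping, antisense or near-identical genes may therefore be mixed.

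Testing used edgeR 4.0.16 under R 4.3.3. After filterByExpr, 16763 of 46983 genes were left, libraries were scaled by TMM, and all 19 samples were fitted with 1 coefficient per group, without a block for replicate number. Contrasts used the quasi-likelihood F test with Benjamini-Hochberg adjustment over all genes tested and a threshold of 0.05. The SE is the absolute log2 fold change divided by the square root of F. CPM values were computed here from the scaled totals, and correlations used log2 CPM with a prior count of 2. The floor of 3 counts covers counting error only, since duplicated PCR reads could not be recognised by molecular identifiers. Scripts were tested on simulated data.

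Coordinates and exon lengths are those of GENCODE M21, matched by identifier for 10 of 10 members. The rule for named genes took all members, receptors of member ligands, list genes past the threshold, the 3 genes most like each member, and Ldha. List genes that passed in neither comparison were named after their values were seen, and some list genes included in the counts are not reported by name here. Members and gene lists were chosen with earlier results of these data known, so a count over a list is no independent evidence. Alternatives were other scalings, no filter, DESeq2 1.42.0, limma 3.58.1 (voom), fits of only the groups compared, a replicate block, each library left out, 4 libraries left out and summed beta chains; leaving out LDHA-KD anti-CTLA-4 replicates 3 and 5 together was chosen after seeing the data. Columns of a group were checked against each other, and no 2 agreed within sampling noise (lowest chi-square per gene 5.40).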

Additional observations from a re-analysis of the deposited data

Results flagged for a closer look

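Of 60 groups of samples checked for a value far from the rest of its group, 2 were marked, and chance marks about 1 in 20. The Csf1r level of control IgG replicate 1 was 95.3 CPM, against 179 to 191 CPM in the other 3 samples of its group. The Kit level of the same sample was 8.15 CPM, against 12.3 to 13.0 CPM. This sample also had the lowest summed macrophage markers of the 19 (1179 CPM). Leaving it out ended the calls of Csf2rb and Csf2rb2 under IgG, as given with those genes.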

How the results depend on the processing

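The count of members called under IgG, 5 with all samples, was 8 in each of 3 other fits: only the 2 groups compared, without the 4 libraries set apart by earlier work (replicates 3 and 5 of both anti-CTLA-4 groups), and without LDHA-KD anti-CTLA-4 replicates 3 and 5. Leaving out 1 library at a time it ranged from 3 to 7, with 3 without control IgG replicate 1 or 5. The counts under anti-CTLA-4, of treatment, of the interaction and of listed pathway genes stayed within 1.5 times under every alternative run. Values that changed sign had passed no threshold. Mif under IgG was 0.033 without scaling and 0.034 with the replicate block. Without the 4 libraries, Csf2ra (treatment, control) was -0.10, Csf2, Kitl, Mif and Csf2ra (treatment, LDHA-KD) were -0.29, 0.12, -0.10 and -0.10, and the interactions of Il34 and Csf2rb2 were 0.071 and -0.062. Without LDHA-KD anti-CTLA-4 replicates 3 and 5, Csf3 under anti-CTLA-4 was -0.028, Csf2, Kitl, Mif and Csf2ra (treatment, LDHA-KD) were -0.29, 0.12, -0.10 and -0.10, and the interactions of Csf1, Il34, Csf2ra, Csf2rb and Csf2rb2 were -0.0049, 0.084, -0.25, -0.13 and -0.19. Among receptors, the same omission gave -0.11 for Csf3r under anti-CTLA-4, -0.051 and -0.12 for Flt3 and Cd74 (treatment, LDHA-KD), and interactions of -0.038, -0.42 and -0.26 for Csf1r, Csf3r and Cd74. Without TMM scaling, r of Kitl with Kit in control tumours was 0.036. Over fits without 1 library, Csf2 (treatment, LDHA-KD) ranged from -0.0061 to 0.32, Mif under IgG from -0.18 to 0.053, and the interactions of Csf3, Il34 and Kitl from -0.39 to 0.070, -0.11 to 0.020 and -0.067 to 0.25. The cause was not tested.

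The labels do not say what a replicate number marks, so the main fit did not pair samples by number. In no comparison did every same-numbered pair of deviations correlate over 0.1. That bar cannot decide whether some numbers share an effect, because a shared effect could also miss it. Correlations ran from -0.11 to 0.09 (IgG, 0 of 4 pairs over 0.1), -0.0063 to 0.25 (anti-CTLA-4, 4 of 5), -0.21 to 0.39 (treatment, control, 3 of 4) and -0.14 to 0.18 (treatment, LDHA-KD, 2 of 5), and 0, 1, 2 and 2 samples correlated best with their own number. With the number as a replicate block, 6 members were higher and 1 lower under IgG (Csf3 0.72 and Il34 -0.28 joined, edgeR adjusted p = 0.0157 and 0.0342), and 5 and 2 under anti-CTLA-4. The lowest count of a member in a library was 35, for Csf2, so each member lay above the floor of 3 counts.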
